A study of Homo sapiens with 6 samples.

Results

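The 7 UGT2B genes UGT2B4, UGT2B7, UGT2B10, UGT2B11, UGT2B15, UGT2B17 and UGT2B28, together with UGDH, were followed by name in gene counts of C4-2, a castration-resistant subline of the human prostate cancer line LNCaP. These 8 genes were found by symbol among the 59565 loci counted. They were chosen by name, with earlier results of these data known. The series holds 6 RNA-seq libraries, 3 labelled C4-2 parental and 3 labelled C4-2 Enz-R, the enzalutamide-resistant derivative of the line. Enzalutamide is a drug against prostate cancer that blocks androgen signalling. The labels give a single parental and a single resistant line, name no separate cultures, and do not say how resistance was raised or whether the Enz-R cells were in the drug at collection. P-values therefore measure only how far these libraries spread, possibly for technical reasons, and a difference between the 2 lines cannot be told apart from a difference between 2 independently grown populations.

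Glucuronidation joins glucuronic acid to a steroid or drug, which makes it water soluble, inactive at its receptor and ready for export. UGT2B enzymes sit in the membrane of the endoplasmic reticulum and take the sugar from UDP-glucuronate, which UGDH makes in the cytosol by oxidising UDP-glucose. In prostate cells UGT2B15 and UGT2B17 are the main enzymes that inactivate dihydrotestosterone and its reduced metabolites in this way, and androgen is known to lower their mRNA in LNCaP cells. UDP-glucuronate is also the sugar donor for the glycosaminoglycans, so UGDH serves the matrix as well as steroid clearance.

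UGT2B15 and UGT2B17 are close copies, so the stretch where they are easiest to tell apart shows what a read must cover to be placed on one of them. In GENCODE 29 both have a coding sequence of 1590 bases, of which 55 differ (96.5% identity). Below are coding bases 266 to 385 of each, 5′ to 3′ on the minus strand of GRCh38 chromosome 4, with the 15 bases that differ in capitals; UGT2B15 lies at chr4:68670234-68670353 and UGT2B17 at chr4:68568100-68568219.
UGT2B15: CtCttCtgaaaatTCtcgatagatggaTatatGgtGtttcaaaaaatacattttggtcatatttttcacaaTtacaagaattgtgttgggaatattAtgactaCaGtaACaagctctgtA
UGT2B17: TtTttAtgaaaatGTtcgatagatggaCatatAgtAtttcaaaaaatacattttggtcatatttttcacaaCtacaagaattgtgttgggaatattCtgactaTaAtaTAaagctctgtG
The longest run without a difference covers coding bases 866 to 1064, which is 199 bases and longer than a read of 150 bases. Of the 1928 windows of 150 bases in each transcript, 94 (4.88%) occur letter for letter in the other. UGT2B11 shared 27 of its 1939 windows (1.39%) with the pseudogene UGT2B25P. No window of UGT2B4, UGT2B7, UGT2B10, UGT2B28 or UGDH was shared with an annotated transcript of another gene. The counts of UGT2B15 and UGT2B17 are uncertain for this reason, by an amount that was not measured, and their sum is given after them.

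Transcripts of the androgen-conjugating pair were close to absent in parental cells and abundant in Enz-R cells, UGDH fell to about the level of either gene of the pair per kilobase of exon, and 4 further UGT2B genes, at or near 0 in parental cells, had low counts in Enz-R cells. Levels are CPM, the reads of a gene scaled to a common library size. Library totals ran from 15673404 to 28247038 counts. Genes were called changed at an adjusted p under 0.05 (edgeR's quasi-likelihood test, Benjamini-Hochberg over the 19029 genes that passed a filter on low counts). By that rule 32.4% of all tested genes were higher in Enz-R and 32.3% were lower (median log2 fold change 0.01), and a call alone sets no gene apart here. Of the 8 genes, 3 passed the filter, and of these UGT2B15 and UGT2B17 were higher and UGDH was lower. The other 5 are given by their counts.

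UGT2B17 (ENSG00000197888, minus strand, 68537184 to 68568527 on GRCh38 chromosome 4) conjugates testosterone, dihydrotestosterone and androsterone. It had 3, 6 and 2 counts in parental replicates 1, 2 and 3, and 545, 391 and 389 counts in Enz-R replicates 1, 2 and 3. These are levels of 0.105, 0.301 and 0.0976 CPM against 24.9, 23.0 and 25.2 CPM. The groups were far from overlapping, and the 3 Enz-R libraries lay close together. The mean went from 0.168 ± 0.115 CPM to 24.4 ± 1.18 CPM (SD, n = 3 each), a log2 fold change of 7.20 ± 0.21 (SE), or 147-fold (edgeR's quasi-likelihood test, Benjamini-Hochberg adjusted p = 5.36e-13). With 11 counts over the parental group, the ratio of the group sums was 153 with a 95% counting interval of 85.4 to 308, so the size of the rise is known only within a wide range. Without parental replicate 2, which held most of the parental counts, the log2 fold change was 7.81. Among all tested genes, 29 rose by more than UGT2B17.

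UGT2B15 (ENSG00000196620, minus strand, 68646630 to 68670628) acts on dihydrotestosterone and on androstanediol, its reduced product. Parental replicates 1, 2 and 3 gave 10, 18 and 4 counts, and the Enz-R replicates 524, 335 and 348. As levels these were 0.348, 0.902 and 0.195 CPM against 23.9, 19.7 and 22.5 CPM, again with no overlap. The mean rose from 0.482 ± 0.372 to 22.1 ± 2.15 CPM (SD, n = 3 each), with a log2 fold change of 5.55 ± 0.24 (SE), or 47.0-fold (edgeR's quasi-likelihood test, Benjamini-Hochberg adjusted p = 4.46e-11). The ratio of the group sums, 32 and 1207 counts, was 48.0 with a 95% counting interval of 33.8 to 70.5. Without parental replicate 2 the log2 fold change was 6.24. Among all tested genes, 51 rose by more than UGT2B15.

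Summed, the pair had 13, 24 and 6 counts in parental and 1069, 726 and 737 counts in Enz-R libraries, a mean of 0.649 ± 0.485 against 46.4 ± 3.26 CPM (SD, n = 3 each), or 71.5-fold. UGT2B15 made up 76.9%, 75.0% and 66.7% of the pair's counts in parental replicates 1, 2 and 3, with exact 95% binomial (Clopper-Pearson) intervals of 46.2 to 95.0%, 53.3 to 90.2% and 22.3 to 95.7%. In Enz-R replicates 1, 2 and 3 it made up 49.0%, 46.1% and 47.2%, with narrow intervals of 46.0 to 52.1%, 42.5 to 49.9% and 43.6 to 50.9%. The shares of the groups did not overlap, at 72.9 ± 5.45% against 47.5 ± 1.46% (SD, n = 3 each), and an exact two-sided permutation test gave p = 0.1, the smallest that 3 libraries against 3 can give, so this design cannot show a difference in share at 0.05. The parental shares rest on 6 to 24 counts a library, and reads in the shared windows could move either gene's count. Intervals here cover counting error only.

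**Figure D1:**
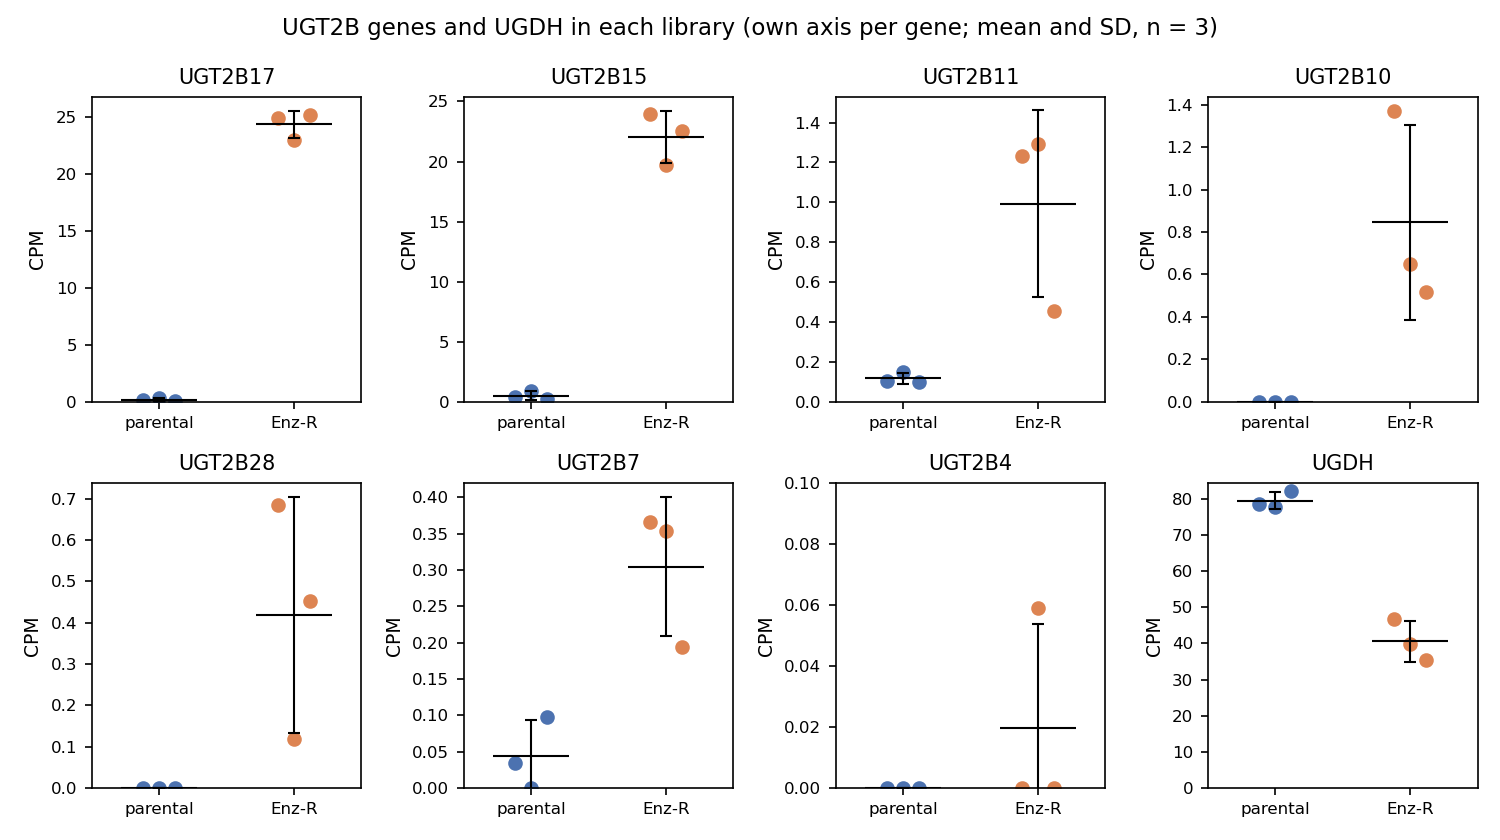
Level of each gene in CPM (vertical axis, its own scale for every gene) in the 3 parental and 3 Enz-R libraries; points are libraries, the long bar is the mean and the whiskers the SD. UGT2B17 and UGT2B15 stand at 19.7 to 25.2 CPM in every Enz-R library, UGDH falls from 77.8 or above to 46.7 or below, and the axis of UGT2B4 holds a single count.

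The remaining family members were all low, and their values are counts before anything else. UGT2B11 (ENSG00000213759, minus strand, 69199951 to 69214731), an enzyme with few known substrates, had 3, 3 and 2 counts in parental and 27, 22 and 7 in Enz-R libraries. Its mean was 0.117 ± 0.0286 CPM in parental and 0.994 ± 0.469 CPM in Enz-R cells (SD, n = 3 each), and the ratio of group sums was 8.91 (95% counting interval 4.23 to 21.6). Enz-R replicate 3 stood well below the other two, though above every parental library.

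UGT2B10 (ENSG00000109181, plus strand, 68815993 to 68831196) conjugates amines such as nicotine at their nitrogen. It had no count in any parental library and 30, 11 and 8 counts in the Enz-R libraries, a mean of 0.845 ± 0.460 CPM (SD, n = 3). As a ratio of group sums over the scaled group totals, its 49 counts against a floor of 3 counts over the whole parental group gave 20.8-fold. This fold against the floor leaves out the counting error of the 49 counts and is not a strict lower bound. On the log2 scale it was 4.38, and 3.76 without Enz-R replicate 1. It was 3.60 without parental replicate 1, which held no count, as the floor was then set against a smaller parental total.

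UGT2B28 (ENSG00000135226, plus strand, 69280499 to 69295050), a family member with weak activity on sex steroids, was likewise at 0 in the 3 parental libraries. It had 15, 2 and 7 counts in the Enz-R libraries, a mean of 0.419 ± 0.285 CPM (SD, n = 3). Its 24 counts in all gave 10.2-fold by the same ratio and floor, again without counting error. On the log2 scale this fold was 3.35, and 2.68 without Enz-R replicate 1. It was 2.57 without parental replicate 1, again only because the floor was set against a smaller parental total. The lowest of these libraries, Enz-R replicate 2, rests on 2 counts.

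UGT2B7 (ENSG00000171234, plus strand, 69051363 to 69112987) has a wide range of substrates that includes morphine, estrogens and androsterone. It had 1, 0 and 2 counts in parental and 8, 6 and 3 counts in Enz-R libraries, and the ratio of group sums was 7.21 (95% counting interval 2.09 to 38.4). The groups did not overlap, but the closest libraries were 1 count apart, and on the log2 scale the ratio was 2.85, against 3.93 without parental replicate 3. UGT2B4 (ENSG00000156096, minus strand, 69480165 to 69526014), a bile acid conjugating enzyme of liver, had a single count, in Enz-R replicate 2. Both groups are under the floor, and no fold is given.

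All the Enz-R values lay above all the parental values for UGT2B7, UGT2B10, UGT2B11 and UGT2B28. Among the 20329 genes that had a count but did not pass the filter, 7.73% did the same. A gene needs a count in every Enz-R library for this, so genes with very few counts lower that share. Among the 19029 tested genes 34.2% had every Enz-R library above every parental one, as UGT2B15 and UGT2B17 did, and 34.7% had every Enz-R library below, as UGDH did. When the edgeR quasi-likelihood fit was repeated on every locus with a count, 16.5% were called higher at a Benjamini-Hochberg adjusted p under 0.05. These loci include those with too few counts to be called. In that fit UGT2B10 had a log2 fold change of 7.17 ± 0.93 (adjusted p = 1.56e-13), UGT2B11 of 3.05 ± 0.50 (adjusted p = 6.61e-09), UGT2B28 of 6.16 ± 1.20 (adjusted p = 1.80e-06) and UGT2B7 of 2.65 ± 0.88 (adjusted p = 0.00930), each ± SE. P-values of that fit are not comparable with those of the filtered one, since the adjusted p of UGT2B15 was 8.88e-190 there, against 4.46e-11 with the filter. They are too small to be taken at face value, and the low genes rest on their counts. The fitted fold changes of UGT2B10 and UGT2B28, at 0 in one group, depend on the fit's prior and are not bounds.

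The sum of the 7 UGT2B genes does not depend on how reads were divided among them, if each read was counted once. How reads that match more than 1 gene were counted is not given. The sum was 17, 27 and 10 counts in parental cells, against 1149, 768 and 762 counts in Enz-R cells. In CPM it was 0.592, 1.35 and 0.488 against 52.5, 45.2 and 49.3, a mean of 0.811 ± 0.472 against 49.0 ± 3.67 (SD, n = 3 each), or 60.4-fold. The sum without UGT2B15 and UGT2B17 was 4, 3 and 4 counts against 80, 42 and 25 counts, a mean of 0.162 ± 0.0297 against 2.58 ± 1.02 CPM, or 15.97-fold. The pair carried nearly all of the family's counts in Enz-R cells, 93.0%, 94.5% and 96.7% in the 3 libraries, against 76.5%, 88.9% and, in replicate 3, 6 of 10 counts in parental cells. Adding the 5 UGT2B pseudogenes in the table brought the totals to 54 and 2717 counts and the fold to 61.3. Without parental replicate 2, the log2 of the summed fold went from 5.92 to 6.50.

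All 7 genes lie in a cluster of 988.8 kb on chromosome 4, and the counts in Enz-R cells were uneven along it. UGT2B17 and UGT2B15 are 102.1 kb apart (start to start) at one end, UGT2B4 is at the other, and UGT2B10, UGT2B7, UGT2B11 and UGT2B28 lie between. The pseudogenes UGT2B29P and UGT2B27P, at 0 in the parental libraries, had 6, 8 and 5 counts and 7, 4 and 5 counts in the Enz-R libraries. Against the floor these were 8.06-fold and 6.79-fold, without counting error. UGT2B26P had 0, 1 and 2 counts in Enz-R libraries, and UGT2B24P and UGT2B25P had none in any library. The sister genes UGT2A2 and UGT2A3 had no count, and UGT2A1 had 1 count in each Enz-R library.

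Within 1 Mb of the cluster the annotation places 31 other protein-coding genes, of which 13 were at 0 throughout and 5 could be tested. Their median log2 fold change was 0.08, with 1 gene higher, 1 lower and 3 not called. Over all tested genes the shares were 32.4% higher and 32.3% lower. The higher one was TMPRSS11E, a transmembrane serine protease gene that ends 39.6 kb before UGT2B17, with 3, 5 and 6 counts in parental and 34, 40 and 33 counts in Enz-R libraries (0.216 to 2.01 CPM). Its log2 fold change was 3.25 ± 0.37 (SE). UBA6, a ubiquitin-activating enzyme, was lower by a small amount (log2 fold change −0.23 ± 0.07 SE, edgeR's quasi-likelihood test, Benjamini-Hochberg adjusted p = 0.00688). YTHDC1, CENPC and ODAM had log2 fold changes of 0.08, 0.08 and 0.01 and were not called.

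**Figure D2:**
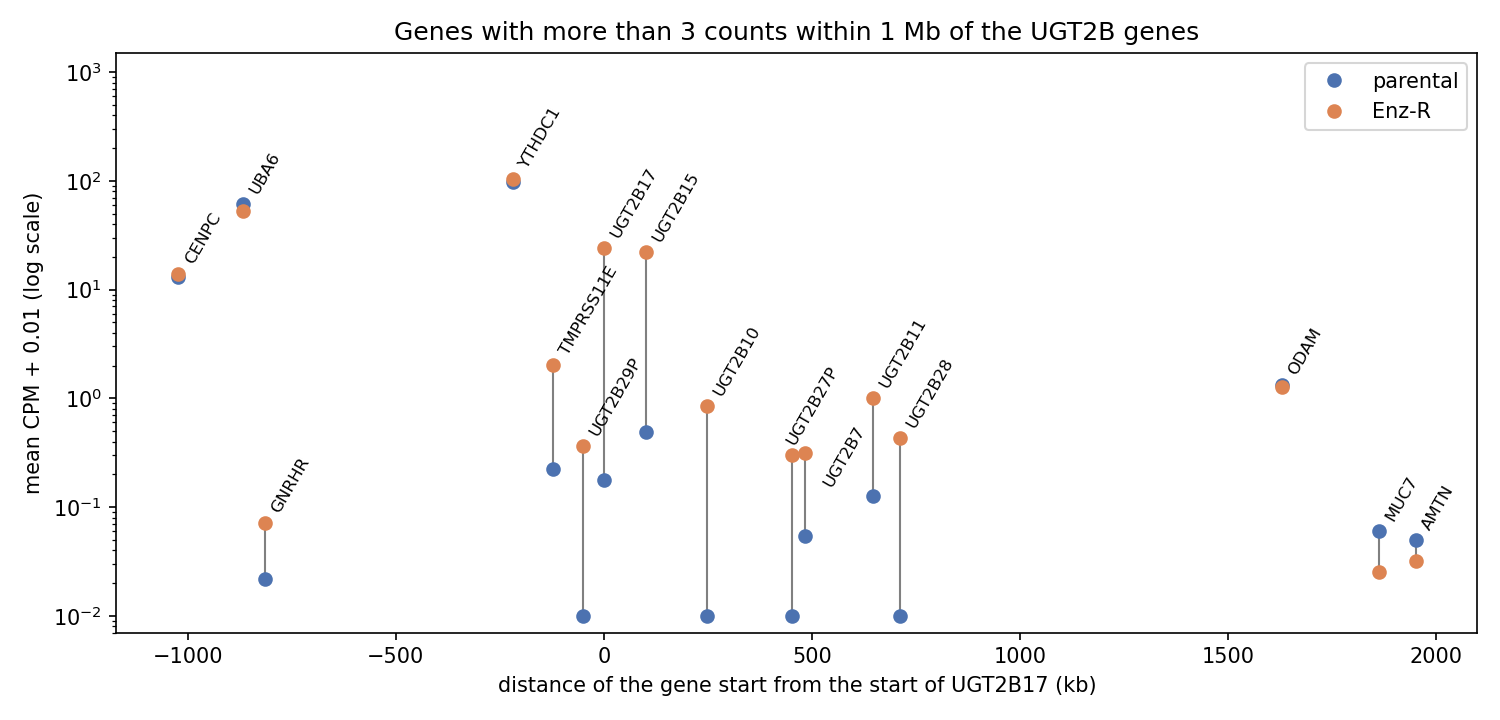
Mean CPM plus 0.01 on a log axis in parental (blue) and Enz-R (orange) cells for each gene with more than 3 counts within 1 Mb of the UGT2B cluster, against the distance of its start from that of UGT2B17 in kb; lines join the 2 means of a gene, and no error is drawn. The long lines belong to UGT2B genes, 2 of their pseudogenes and TMPRSS11E, while YTHDC1, at −218.4 kb, has nearly the same level in both lines.

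UGDH, the source of the co-substrate, moved the other way. The gene (ENSG00000109814, minus strand, 39498755 to 39528311) is on the same chromosome, 29.01 Mb from the cluster. Parental replicates gave 2260, 1553 and 1682 counts and Enz-R replicates 1022, 675 and 545, or 78.7, 77.8 and 82.1 CPM against 46.7, 39.7 and 35.3 CPM. Every Enz-R library was below every parental library, and the Enz-R libraries were the more spread. The mean fell from 79.5 ± 2.27 to 40.5 ± 5.76 CPM (SD, n = 3 each), a log2 fold change of −0.96 ± 0.08 (SE), or 1.95-fold lower (edgeR's quasi-likelihood test, Benjamini-Hochberg adjusted p = 1.04e-07). A fall of this size was common in the series, as 1745 tested genes (9.17%) fell further.

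UGDH-AS1, an antisense transcript whose start overlaps that of UGDH, fell as well, from 130, 119 and 92 counts to 38, 40 and 41 counts. Its log2 fold change was −1.17 ± 0.20 (SE; edgeR's quasi-likelihood test, Benjamini-Hochberg adjusted p = 9.81e-05). The counting is not stated to use strand, so reads from the overlap of the 2 genes cannot be told apart, though UGDH-AS1 had a small count beside that of UGDH.

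Compared per kilobase of exon, the enzymes and their co-substrate gene changed places. Length here is that of all annotated exons of a gene together. For UGDH this is 4045 bases, against 3216 in the transcript used for the windows above. For UGT2B15 and UGT2B17 it is 2077 bases by both measures. The UGT2B sum was 0.278, 0.643 and 0.226 CPM per kb in the parental libraries, against 19.4, 19.2 and 20.3 CPM per kb for UGDH. In the Enz-R libraries the sum was 25.3, 21.7 and 23.8 CPM per kb and UGDH was 11.5, 9.82 and 8.72 CPM per kb. The UGT2B sum therefore stood at 0.0143, 0.0334 and 0.0111 of UGDH in parental cells and at 2.19, 2.21 and 2.73 times UGDH in Enz-R cells, with no overlap. Singly, UGT2B17 went from 0.0807 to 11.7 ± 0.569 CPM per kb and UGT2B15 from 0.232 to 10.6 ± 1.04, while UGDH went from 19.7 ± 0.562 to 10.03 ± 1.42 (SD, n = 3). In Enz-R cells neighbours in this order had libraries that overlapped, and the order there depends on the length used for UGDH. In parental cells UGDH was far above both. Among 18333 tested genes with a known exon length, UGT2B17 lay above 1.95% of genes in parental and 78.6% in Enz-R cells, UGT2B15 above 7.17% and 76.3%, and UGDH above 87.7% and 75.0%. These are amounts of RNA, and in bulk libraries a change in the share of cells that express a gene cannot be told apart from a change in RNA per cell.

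**Figure D3:**
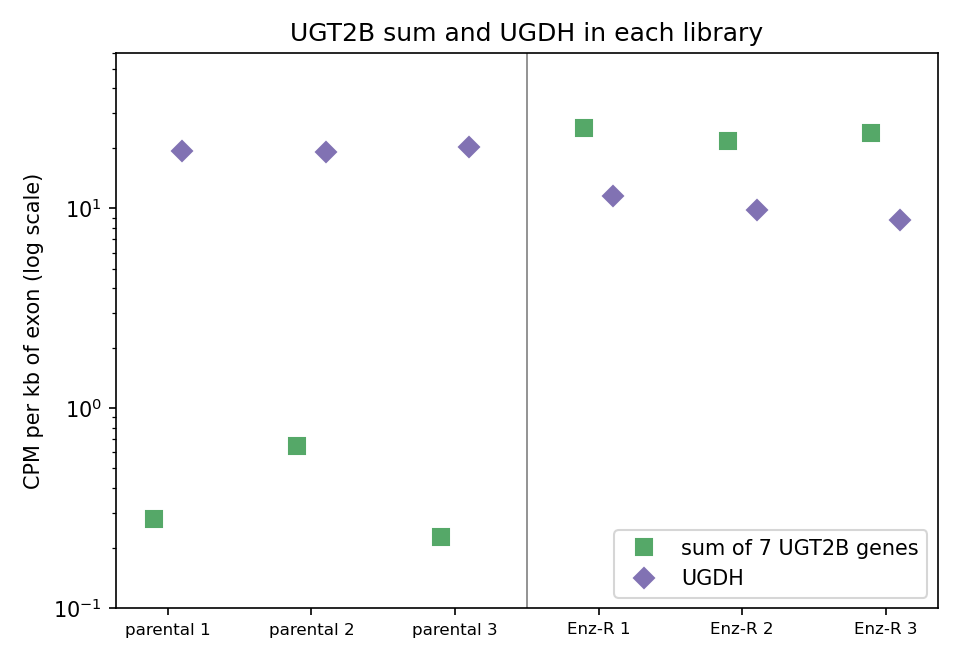
Summed level of the 7 UGT2B genes (squares) and level of UGDH (diamonds) in CPM per kb of exon on a log axis, 1 pair of points for each of the 6 libraries. UGDH is the higher of the pair in all 3 parental libraries, and the UGT2B sum, at 21.7 to 25.3 CPM per kb, is the higher in all 3 Enz-R libraries.

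The other genes that lead to UDP-glucuronate, carry it or turn it into UDP-xylose went down or did not pass the test. Of 8 in the list, 0 were higher, 6 were lower and 2 were not called. The median log2 fold change was −0.45, against 0.01 over all tested genes, of which 32.4% were higher and 32.3% lower. The same shares stand beside the calls in every list below. SLC35D1, which carries UDP-glucuronate into the endoplasmic reticulum where the UGT2B enzymes work, dropped from a total of 85 parental to 9 Enz-R counts, that is from 1.27 ± 0.471 to 0.163 ± 0.0291 CPM (SD, n = 3 each). Its log2 fold change of −2.87 ± 0.44 (SE; edgeR's quasi-likelihood test, Benjamini-Hochberg adjusted p = 3.95e-05) rests on few reads. UGP2, which makes UDP-glucose, the substrate of UGDH, fell from 47.9 ± 2.75 to 36.3 ± 2.89 CPM (log2 fold change −0.40 ± 0.07 SE). PGM2, a phosphoglucomutase, fell from 41.3 to 26.5 CPM (log2 fold change −0.63). UXS1, which uses up UDP-glucuronate by turning it into UDP-xylose, had a log2 fold change of −0.07 ± 0.08 (SE; adjusted p = 0.407 in the same edgeR quasi-likelihood test) and was not called.

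Among 17 enzymes that also draw on UDP-glucuronate or open the chains built from it, 14 could be tested, and 5 were higher, 7 lower and 2 not called (median log2 fold change −0.10). The chondroitin synthase CHSY1 fell from 70.3 to 16.02 CPM (log2 fold change −2.14 ± 0.08 SE). Its relative CHSY3 rose from 0.281 to 2.42 CPM (log2 fold change 3.06 ± 0.34 SE). B3GAT2, a glucuronyltransferase, fell from 1.13 to 0.608 CPM (log2 fold change −0.87).

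Genes for splitting and exporting glucuronides moved in both directions. Of 6, 5 were tested, with 2 higher and 3 lower and a median log2 fold change of −0.45. GUSB, the lysosomal enzyme that removes glucuronic acid again, fell from 111.8 to 81.7 CPM (log2 fold change −0.45 ± 0.06 SE). The exporters ABCC4 and ABCC1 fell, by 1.39 and 1.08 on the log2 scale, from 99.7 to 37.8 CPM and from 169.5 to 80.1 CPM. ABCC3 rose from 0.432 to 2.27 CPM and ABCG2 from 1.17 to 2.44 CPM (log2 fold changes 2.38 and 1.07), both from low levels.

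Among the 19 genes that reduce or oxidise androgens ahead of conjugation, 12 were tested, with 4 higher, 0 lower and 8 not called (median log2 fold change 0.13). AKR1C3, which reduces androstenedione to testosterone, rose from 0.124 to 1.13 CPM, and AKR1C2, which reduces dihydrotestosterone to androstanediol, rose from 0.343 to 1.92 CPM. Their log2 fold changes were 3.06 ± 0.46 and 2.52 ± 0.40 (SE). In Enz-R cells both were below UGT2B15 and UGT2B17 in CPM. AKR1C genes are similar in sequence, so reads may be split among them. AKR1C1 had 56 parental and 31 Enz-R counts and was not called. SRD5A1, which makes dihydrotestosterone, and its relative SRD5A3 had log2 fold changes of 0.15 and 0.10 and were not called.

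Sulfation is the other conjugation open to steroids. Of 11 genes in its list, 8 were tested, with 3 higher, 3 lower and 2 not called (median log2 fold change −0.06). SULT2B1, a hydroxysteroid sulfotransferase, rose from 10.9 to 31.8 CPM (log2 fold change 1.55 ± 0.09 SE), and PAPSS2, which makes the sulfate donor, rose from 1.63 to 3.43 CPM. SLC35B2, which carries that donor into the Golgi, fell from 83.7 to 45.7 CPM, and STS, which removes sulfate from steroids, fell from 3.88 to 2.498 CPM.

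**Figure D4:**
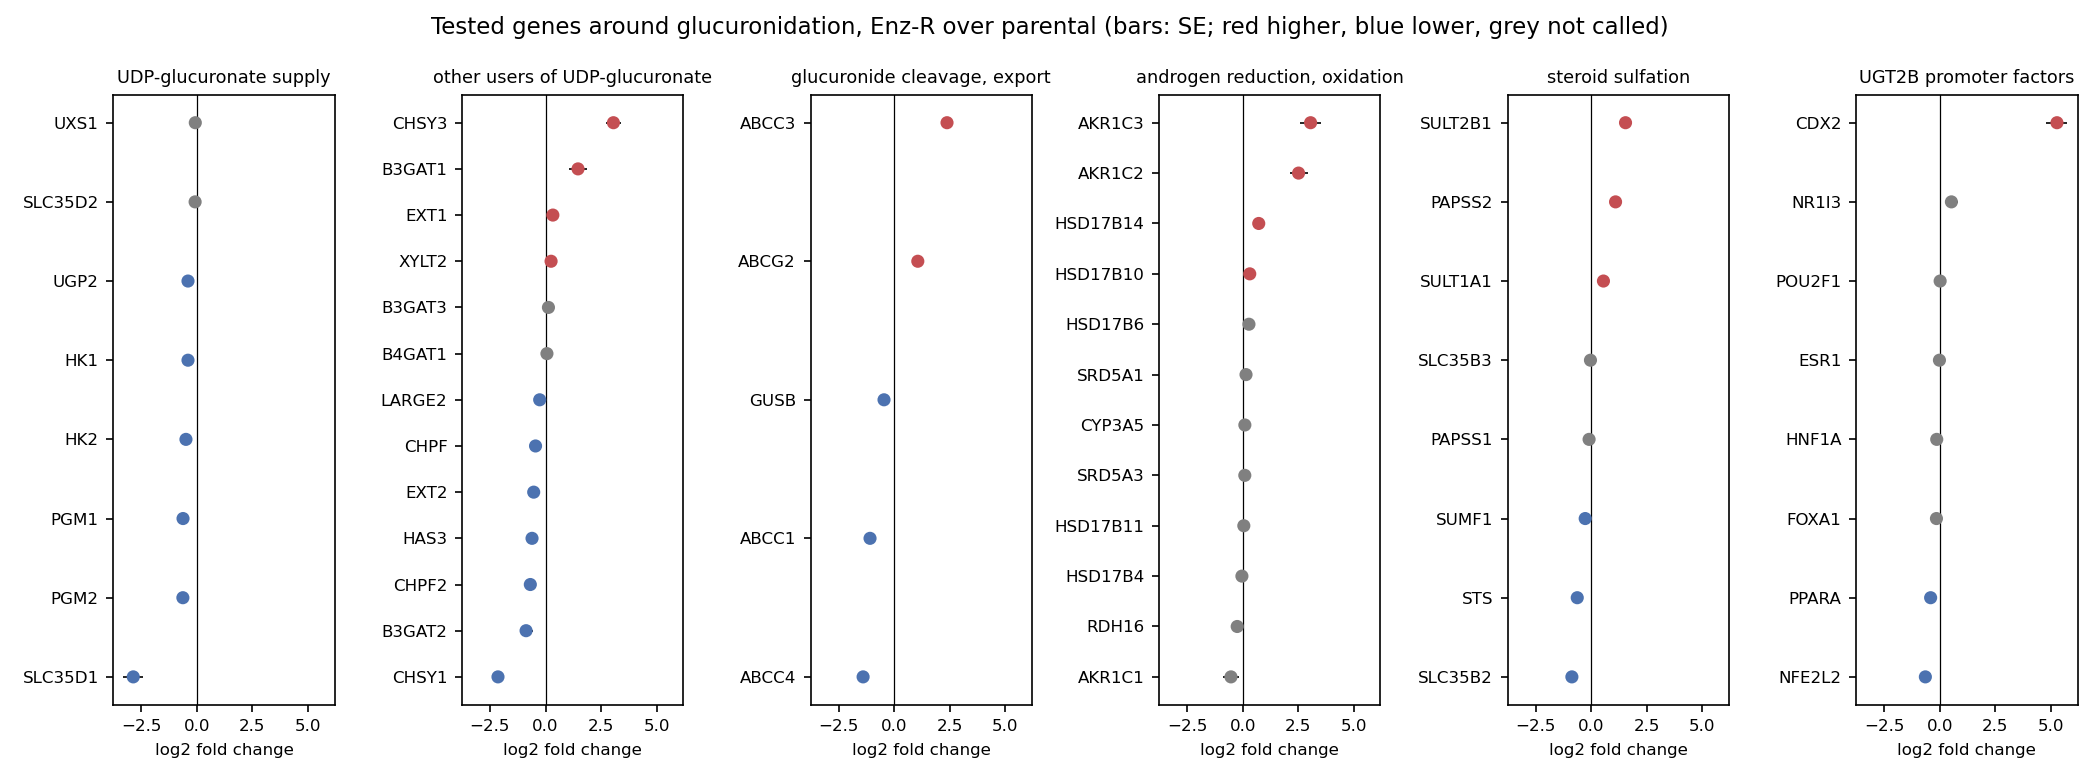
Log2 fold change of Enz-R over parental with its SE for tested genes of 6 lists around glucuronidation; red points were called higher, blue lower and grey neither at an adjusted p under 0.05. All 8 points of the UDP-glucuronate supply panel, which also holds UXS1, are below 0, SLC35D1 farthest, and CDX2 is the one called rise in the panel of promoter factors.

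Several transcription factors are known to act on UGT2B promoters in liver, gut or prostate cells, and most showed no called change. Of 12, 9 were tested, with 1 higher, 2 lower and 6 not called (median log2 fold change −0.01). CDX2, a homeobox factor of the intestinal epithelium, went from a total of 4 parental to 134 Enz-R counts, or from 0.0664 ± 0.0767 to 2.499 ± 0.314 CPM (SD, n = 3 each), with a log2 fold change of 5.28 ± 0.47 (SE; edgeR's quasi-likelihood test, Benjamini-Hochberg adjusted p = 1.35e-07). NFE2L2, a factor of the oxidative stress response, fell from 75.6 to 48.1 CPM and PPARA, a fatty acid receptor, from 33.9 to 25.6 CPM (log2 fold changes −0.65 and −0.41).

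Promoter sequences are shown for 3 UGT2B genes that moved together and for UGDH, which moved against them, to set the different base composition side by side. The RefSeq promoter table used here (GRCh38.p14) was matched for 5 of the 8 genes: UGT2B7, UGT2B10, UGT2B11, UGT2B15 and UGDH. The 250 bases before the RefSeq start are printed 5′ to 3′ on the gene's strand. They lie at chr4:68670653-68670902 (minus) for UGT2B15, chr4:68815744-68815993 (plus) for UGT2B10, chr4:69214749-69214998 (minus) for UGT2B11 and chr4:39527440-39527689 (minus) for UGDH. The RefSeq start can differ from the end of the gene interval given above. The UGDH window lies inside that gene's interval, 39498755 to 39528311. The UGT2B7 window, chr4:69096224-69096473 (plus), is likewise inside its interval, 69051363 to 69112987. Capitals mark the TATA box letters TATAAA, the letters GGGCGG of a GC box on either strand, and TTTATG on the opposite strand, a core that CDX2 is known to bind.
UGT2B15: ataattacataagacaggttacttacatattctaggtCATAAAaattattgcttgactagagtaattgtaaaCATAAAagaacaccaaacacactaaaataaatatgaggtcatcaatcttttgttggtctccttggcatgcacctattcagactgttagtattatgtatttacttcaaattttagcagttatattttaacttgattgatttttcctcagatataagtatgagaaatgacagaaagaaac
UGT2B10: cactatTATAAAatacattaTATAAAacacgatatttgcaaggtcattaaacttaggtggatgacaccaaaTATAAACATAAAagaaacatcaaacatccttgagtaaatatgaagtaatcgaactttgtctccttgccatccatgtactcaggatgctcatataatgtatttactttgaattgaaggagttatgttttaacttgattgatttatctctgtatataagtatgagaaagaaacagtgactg
UGT2B11: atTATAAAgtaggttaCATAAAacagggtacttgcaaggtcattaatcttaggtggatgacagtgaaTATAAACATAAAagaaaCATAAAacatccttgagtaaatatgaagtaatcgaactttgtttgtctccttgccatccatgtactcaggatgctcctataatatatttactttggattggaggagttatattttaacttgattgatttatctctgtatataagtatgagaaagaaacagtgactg
UGDH: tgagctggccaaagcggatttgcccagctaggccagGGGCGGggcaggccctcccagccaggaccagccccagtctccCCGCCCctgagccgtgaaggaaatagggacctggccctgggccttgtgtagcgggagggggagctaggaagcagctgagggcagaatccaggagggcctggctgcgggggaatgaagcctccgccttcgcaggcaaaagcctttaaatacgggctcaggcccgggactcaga
The UGT2B windows are rich in A and T, with a GC content of 28.4% for UGT2B15, 29.6% for UGT2B10, 31.2% for UGT2B11 and 32.8% for UGT2B7. The median over all 27305 windows of the table was 57.6%, and only 1.04% to 3.66% of windows had less GC than these 4. UGDH had 66.0% GC, and 71.0% of all windows had less. UGT2B10 and UGT2B11 were 90.2% identical in this window, and the other pairs of UGT2B windows 56.7% to 70.0%.

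Motifs picked after the values were known were searched on both strands. TTTATG was in all 4 UGT2B windows and not in that of UGDH. It is in 10.1% of all windows, but in 34.9% of the 1099 windows with no more GC than UGT2B7. TATAAA was in the UGT2B10 window 3 times and in that of UGT2B11 2 times (11.4% of all windows, 50.3% of the low-GC ones), and GGGCGG was in the UGDH window 2 times (41.3% of all windows). UGT2B15 held the forkhead letters TGTTTAC (3.08% of all windows, 7.73% of the low-GC ones), with a first base at −183 from the start, which overlap a TTTATG match. TGACNNNGC, the antioxidant response core, was in UGT2B10 and UGT2B11 (10.97% of all windows, 3.73% of the low-GC ones). The HNF1 letters GTTAAT (6.38% of all windows, 22.1% of the low-GC ones), the full HNF1 palindrome (0.00733% of all windows) and the AP-1 letters TGANTCA (6.85% and 9.46%) had no match in the 5 windows. A match is a run of letters and says nothing of binding.

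The genes with a profile over the 6 libraries most like that of UGT2B17 were sought among 16299 tested genes with a symbol, by the root mean square distance of log2 CPM centred on the parental mean. They were TTPA, the tocopherol transfer protein, at a distance of 0.267, then ABCC11 (0.399), CTAG2 (0.445), IGFBP3 (0.450) and CRISP3 (0.479), with log2 fold changes of 6.19 to 7.67. UGT2B15 ranked 10 at 0.855. The genes most like UGDH were IRAK1 (0.0424), ODC1 (0.0458), LINC01446 (0.0464), YWHAG (0.0550) and NUP50-DT (0.0560), with log2 fold changes of −1.005 to −0.92. With 6 libraries in 2 groups these distances follow the fold change in the main.

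Liver and gut are the organs where most UGT2B genes are usually found, so markers of their cells were read beside the rise. Of 8 hepatocyte markers, 3 were tested, with 2 higher and 1 lower, and their summed level was 2.00 to 2.75 CPM in parental and 4.98 to 5.76 CPM in Enz-R libraries. Summed over each group, the tested ones went from 30 to 205 counts (CYP2E1), 34 to 67 (APOA1) and 77 to 3 (TTR). ALB had 3 counts in each group and FGB none. Of 6 enterocyte markers, 2 were tested and both were higher, CDX2 among them, with sums of 2.86 to 3.51 and 6.59 to 8.48 CPM. LGALS4, the other tested one, went from 175 to 248 counts. FABP1 had 0 counts in parental and 1 in Enz-R libraries, and VIL1 had 26 and 33. Their part in the UGT2B result was not tested. Of the 9 luminal prostate markers, 2 were higher, 6 lower and 1 not called, and their summed level was 9452 to 10060 CPM in parental and 5434 to 5645 CPM in Enz-R libraries. KLK3, the prostate-specific antigen gene, was at 2533 ± 63.9 CPM in Enz-R cells, against 4768 ± 249 CPM in parental cells (SD, n = 3 each). Basal, fibroblast, endothelial and immune markers summed to 3.34 to 3.43, 49.5 to 58.6, 2.94 to 3.43 and 1.29 to 1.83 CPM in Enz-R libraries, all below the parental ranges of 3.66 to 4.73, 60.3 to 63.4, 7.31 to 9.76 and 2.504 to 2.89 CPM.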

How the data were processed

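RNA was measured in 6 libraries of C4-2 cells, 3 parental and 3 Enz-R, by 150 bp paired-end sequencing. HISAT2 and the build GRCh38 are named for the alignment, per the submitters' processing notes. Not given in the sources used here are the version of HISAT2, how reads were counted, on which annotation and with which strand setting. The values the authors deposited are raw counts per locus and library, with no scaling. Of its 59565 loci, 58676 have Ensembl identifiers, all found in GENCODE 29, and 889 are unannotated (0.349% of counts). Symbols came from a current gene list for 41937 identifiers and from GENCODE 29 for the rest.

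Libraries were grouped by their labels and compared in R 4.3.3 by the quasi-likelihood test of edgeR 4.0.16 after filterByExpr and TMM scaling, without covariates, with Benjamini-Hochberg adjustment and a threshold of 0.05. The script was tested on simulated data. CPM uses TMM-scaled totals, the SE is the log2 fold change over the root of F, and the common biological coefficient of variation was 7.20%. Counts between replicates differed by more than counting error (chi-square per degree of freedom 4.30 to 10.1). Ratios of sums have exact conditional 95% intervals, and a group at 0 was set to a floor of 3 counts over the group. DESeq2 1.42.0, limma-voom (limma 3.58.1), other scalings and filters, summed paralogs, a replicate block and left-out libraries were alternatives.

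The members, lists and tests were chosen with earlier results of these data known. Named are all members, UGP2, UXS1, SLC35D1 and GUSB, the up to 2 largest called rises and falls per list among genes of at least 1 CPM in either group, and the 5 genes most like UGT2B17 and UGDH. Neighbours, pseudogenes, AKR1C1, SRD5A1, SRD5A3, markers and motifs were named outside that rule. Sequences are from GENCODE 29 transcripts and the RefSeq promoter table; protein sequences were not used here. Some genes and motifs that the lists and this rule include are not reported here by name.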

Additional observations from a re-analysis of the deposited data

How the results depend on the processing

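Calls for UGT2B15, UGT2B17 and UGDH kept their direction and stayed past the threshold under every alternative run, with log2 fold changes of 5.23 to 6.24, 5.98 to 7.81 and −1.08 to −0.87, leaving out each library in turn and summing the paralogs into 1 row included. The log2 fold of the UGT2B sum was 5.66 to 6.50 with 1 library left out, highest without parental replicate 2, and 5.82 with library totals alone. It was 5.94 with the pseudogenes added and 6.16 for UGT2B15 and UGT2B17 alone. Counts of pathway genes called higher went from 14 to 9 when at least 50 counts in 3 libraries were required, as fewer genes were then tested, and lay between 14 and 16 with 1 library left out. With 1 library left out, the log2 folds against the floor were 3.60 to 4.60 for UGT2B10 and 2.57 to 3.76 for UGT2B28. The log2 ratios of group sums were 2.95 to 3.45 for UGT2B11 and 2.36 to 3.93 for UGT2B7. These genes were below the filter, and fits by other tools or with the block were not run for them. For UGT2B4 no fold is given. With library totals alone 5208 genes were higher and 7094 lower, 42.3% of calls higher against 50.1%, and the median log2 fold change was −0.08. Across all alternatives 5097 to 6475 genes were higher and 5049 to 7094 lower.

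The labels number the replicates of both lines from 1 to 3, and deviations of same-numbered libraries correlated at 0.0473, −0.0317 and 0.00058. No shared deviation was seen. So few libraries cannot exclude a pairing by number, which the labels do not state. A replicate block left 6179 genes higher and 6158 lower, with log2 fold changes of 7.20 for UGT2B17, 5.56 for UGT2B15 and −0.97 for UGDH, and changed no call among these. Depth limits UGT2B4, UGT2B7, UGT2B10, UGT2B11 and UGT2B28, for which a difference smaller than a few counts a library could not be detected.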

Other observations

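The 15 other UGT genes, UGT2A included, were mostly low. Of these, UGT8, a galactosyltransferase of myelin lipids, was the one that could be tested, with a log2 fold change of 0.28 ± 0.15 (SE; edgeR's quasi-likelihood test, Benjamini-Hochberg adjusted p = 0.120), and 4 had no count. UGT1A1, the bilirubin-conjugating enzyme, had 10 parental and 28 Enz-R counts in all. UGT1A3 had 13 and 0 counts, and UGT1A7 had 1 and 9. UGT1A genes share their later exons, so counts may be split among them.

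Around UGDH, the annotation places 19 other protein-coding genes within 1 Mb, a set looked at after the value of UGDH was known. Of these, 14 were tested, with 2 higher, 10 lower and 2 not called, and a median log2 fold change of −0.29. Over all tested genes 32.4% were higher and 32.3% lower. RPL9, a ribosomal protein gene, was higher (log2 fold change 0.66), and KLB, a co-receptor of fibroblast growth factors, and N4BP2 were lower by more than UGDH, at −1.46 and −1.15. RFC1, a clamp loader subunit, fell by 0.69 on the log2 scale.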
